A study of Rattus norvegicus with 6 samples.

Results

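Ldha, Pgk1 and Sdha are 3 metabolic genes whose messenger RNAs were measured by 4 probes on a rat circular RNA (circRNA) array, 2 of the probes for Ldha. The probes were chosen by the RefSeq transcript each one targets, among the 62 probes for linear transcripts that carry 10 spots per array. Of these 62 probes, 39 matched a gene symbol by accession, for 38 symbols in all, and 51 were bright enough to be tested, the 4 among them. The lungs came from 6 adult male rats, 3 normal and 3 with acute respiratory distress syndrome (ARDS) induced by lipopolysaccharide, the endotoxin of Gram-negative bacteria. Each rat gave 1 array labelled with Cy3. The dose, the route, the time after lipopolysaccharide, the strain and whether the normal rats received a vehicle are not given in the sources used here. In both groups total RNA had been digested with RNase R, which degrades linear RNA, before amplification from random primers, so the signals of these messenger RNAs are what was left after a step meant to remove them. In whole lung, fewer cells of a type and less RNA per cell cannot be told apart. The lung label could not be checked against cell markers, because 0 of the 34 markers listed for this purpose matched a linear probe.

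The 3 enzymes stand at different points of glucose breakdown. Phosphoglycerate kinase, encoded by Pgk1, makes ATP in the energy-yielding steps of glycolysis in the cytosol. Lactate dehydrogenase A, encoded by Ldha, turns the pyruvate that glycolysis ends in into lactate and regenerates NAD+, whereas succinate dehydrogenase, of which Sdha encodes the catalytic flavoprotein, works in the mitochondrial citrate cycle and is complex II of the respiratory chain. Ldha and Pgk1 are textbook targets of the hypoxia-inducible factors, and neutrophils and activated macrophages, which enter the inflamed lung, rely strongly on glycolysis.

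No upstream sequence of Pgk1 was among the promoter sequences used here, so none is shown for it. The sequences upstream of Ldha and Sdha are shown because the first is a known hypoxia target and the second is not counted among the classical ones. Both are RefSeq sequences of the GRCr8 assembly on the + strand, the 250 bases before the start of the gene, at chr1:106507842-106508091 for Ldha and chr1:30764303-30764552 for Sdha. Capitals mark the core of the hypoxia response element, searched as ACGTG and as GCGTG on both strands.
Ldha: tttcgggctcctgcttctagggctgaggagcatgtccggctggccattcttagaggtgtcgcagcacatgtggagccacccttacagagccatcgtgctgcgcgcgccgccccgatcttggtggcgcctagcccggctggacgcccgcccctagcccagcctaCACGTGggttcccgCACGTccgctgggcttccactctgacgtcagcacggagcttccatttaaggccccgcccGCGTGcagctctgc
Sdha: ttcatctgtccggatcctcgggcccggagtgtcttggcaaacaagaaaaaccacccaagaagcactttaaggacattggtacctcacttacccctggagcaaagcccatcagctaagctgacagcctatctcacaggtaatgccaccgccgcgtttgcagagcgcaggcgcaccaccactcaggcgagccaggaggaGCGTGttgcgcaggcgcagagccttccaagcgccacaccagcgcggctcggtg
The Ldha window held 3 matches of ACGTG and 1 of GCGTG. Of the ACGTG matches, 2 overlap, since CACGTG reads the same on both strands. The Sdha window held 0 of ACGTG and 1 of GCGTG. Among 33469 rat promoter windows of the same length, 16.6% held ACGTG and 25.9% held GCGTG. A match is a run of letters and was not tested as a binding site, and the arrays measured no promoter.

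All 240 spots of the 4 probes were well above background and 0 were saturated. The scanner software marked 11 of them as outliers, which were left out. The 10 spots of a probe lie scattered over the array and gave closely similar values: their coefficient of variation was 1.17% to 6.61% for the catalogue probe of Ldha, 2.27% to 4.69% for its custom probe, 5.62% to 10.6% for Pgk1 and 3.74% to 10.9% for Sdha. The mean of the spots was therefore known to within 0.0056 to 0.053 log2 units (standard error over spots of 1 array). Arrays of one group differed far more than spots of one array for 3 of the 4 probes. The standard deviation between arrays was 7.03 times that between spots for the Ldha catalogue probe, 5.38 times for Sdha, 2.88 times for Pgk1 and 1.72 times for the Ldha custom probe. Spots of 1 array are not replicates of a lung, and all comparisons below are over arrays. Each group has 3 arrays, except where an array is left out or only the first scan is used.

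**Figure D1:**
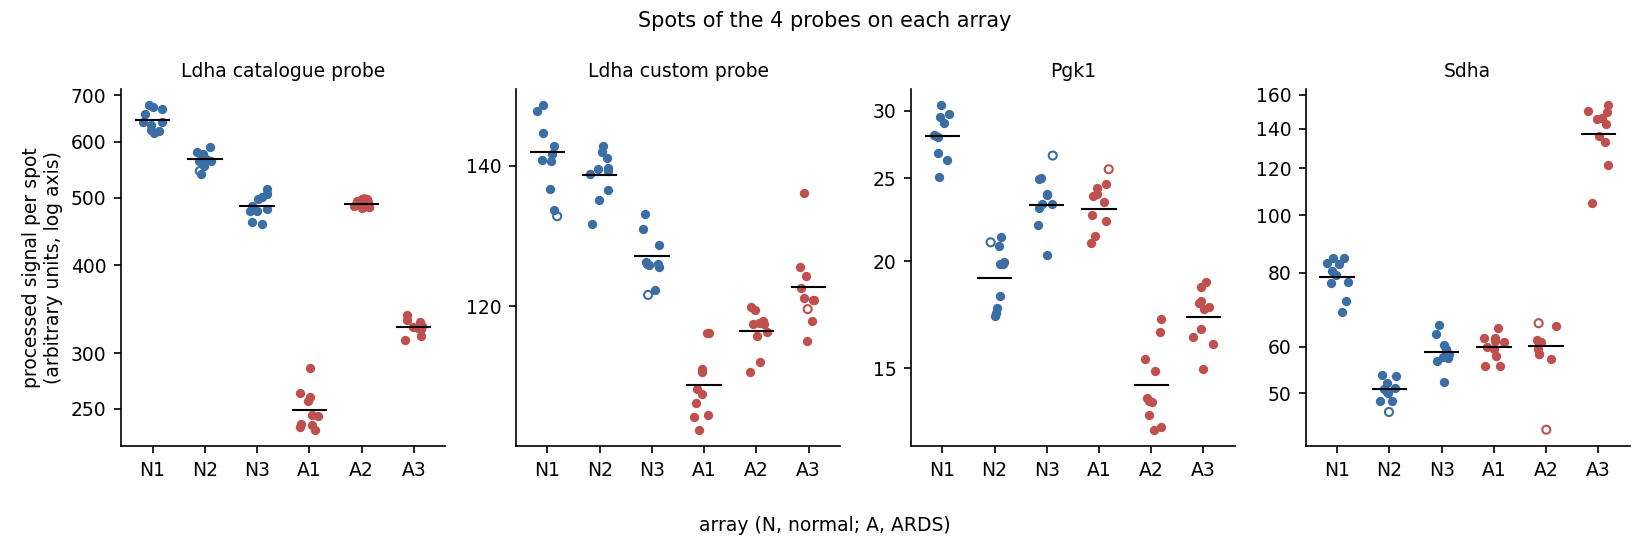
Processed signal of each spot (log axis, arbitrary units) for the 4 probes on normal arrays N1 to N3 (blue) and ARDS arrays A1 to A3 (red); bars are means of the spots used and open circles are outlier spots. Sdha on A3 stands above every other array, from 105 to 153 per spot, while both Ldha probes tend to be lower on ARDS arrays.

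The ARDS arrays were dimmer as a whole, and the choice of scaling set the sign of 3 of the 4 probes. The 75th percentile of the circRNA log2 signal was 7.59, 7.22 and 7.39 on normal arrays 1 to 3 and 5.99, 6.66 and 5.82 on ARDS arrays 1 to 3, with means of 7.40 ± 0.18 and 6.16 ± 0.45 (SD, n = 3 each; exact permutation p = 0.1, the smallest that 3 against 3 arrays allows). Subtracting it, the scaling used here, adds 1.24 log2 units to every ARDS minus normal difference. A scaled difference thus says how a transcript moved relative to the circRNAs of the same array, and an unscaled one how its own brightness moved. A first scan held 5 of the arrays, and a second held ARDS replicate 3 alone.

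Relative to circRNAs, the differences of all 4 probes lay above 0 in ARDS lung, and only the custom probe for Ldha passed the test. That is 1 of 4, against 19.9% of all 13277 probes tested and 35.3% of the 51 linear probes (limma, Benjamini-Hochberg adjusted p under 0.05 over all probes, either direction). The values of normal and ARDS arrays did not overlap for 3 of the 4 probes, all higher in ARDS lung, as they did not for 23.2% of all probes and 45.1% of linear probes in that direction. The share of linear probes is the nearer background. With quantile normalization 2 of the 4 did not overlap, and against the mean of the other linear probes 1 did not. For those 2 scales no share over all probes is given, so these counts have no background here. In the median, scaled differences came to 0.94 over the 4 probes, 0.54 over the other 47 linear probes and 0.05 over 13226 circRNA probes. Without scaling 0 of 4 passed, and 0 of 4 had an unadjusted p under 0.05 (limma), where 59% of all probes passed, 58.7% being lower in ARDS lung.

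Pgk1 gave a weak signal. Its mean signal over spots was 28.0, 19.1 and 23.3 on normal arrays 1 to 3 and 23.0, 14.3 and 17.2 on ARDS arrays 1 to 3. The groups overlapped, since ARDS replicate 1 was nearly as bright as the middle normal array. Its spots had a median of 35.5 to 47.5 before background correction, over a local background of 15.8 to 24.0. Without scaling the log2 difference was -0.38 (SE 0.33, 95% interval -1.12 to 0.36, limma adjusted p = 0.36).

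Scaled to the circRNAs, Pgk1 stood at -2.78, -2.97 and -2.85 log2 units on normal arrays and at -1.46, -2.82 and -1.71 on ARDS arrays. ARDS replicates 1 and 3 were thus above all normal arrays, and ARDS replicate 2 lay among them. The means were -2.86 ± 0.096 and -1.9985 ± 0.72 (SD, n = 3 each), a difference of 0.87 (SE 0.36, 95% interval 0.02 to 1.71) that did not pass (limma adjusted p = 0.118). Of the 6 fits that each left out 1 array, Pgk1 passed in 1. Without ARDS replicate 2 the difference was 1.28 and passed (limma adjusted p = 0.0201). In that fit 28 of the 51 linear probes passed, against 18 over all arrays, and the share over all probes is not given here. With normexp background correction of the median signals followed by quantile normalization the Pgk1 difference was 0.24 (limma adjusted p = 0.196). That setting adds an offset of 50 to every corrected signal, more than the mean Pgk1 signal of any array. Such an offset makes log ratios of weak signals smaller by construction, and its part in this value was not tested.

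For Ldha, the catalogue probe was the brightest of the 4 and the one that varied most between ARDS lungs on the unscaled scale after Sdha. Its signal was 645, 567 and 486 on normal arrays 1 to 3 and 249, 489.8 and 327 on ARDS arrays 1 to 3. ARDS replicates 1 and 3 were clearly dimmer than every normal array, and ARDS replicate 2 matched the dimmest normal one. The unscaled means were 9.14 ± 0.21 and 8.42 ± 0.49 (SD, n = 3 each), a log2 difference of -0.72 (SE 0.35, 95% interval -1.50 to 0.06, limma adjusted p = 0.104). Scaled, it stood at 1.75, 1.92 and 1.54 on normal and 1.97, 2.27 and 2.53 on ARDS arrays. The groups then lay apart, narrowly, since 1.92 and 1.97 are the nearest values. The scaled difference was 0.52 (SE 0.24, 95% interval -0.04 to 1.09) and did not pass (limma adjusted p = 0.147).

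The custom probe for Ldha varied least between arrays of one group before scaling. Its signal was 142, 139 and 127 on normal arrays 1 to 3 and 110.0, 117 and 123 on ARDS arrays 1 to 3, so that the brightest ARDS array fell just short of the dimmest normal one. It was the only one of the 4 whose groups did not overlap before scaling, in the direction of 65.8% of all probes and 41.2% of linear probes. The unscaled difference was nevertheless small, -0.22 on the log2 scale (SE 0.29, 95% interval -0.87 to 0.43, limma adjusted p = 0.55). Scaled, the values were -0.44, -0.11 and -0.40 on normal arrays and 0.79, 0.20 and 1.12 on ARDS arrays, all ARDS arrays above all normal ones. The means were -0.32 ± 0.18 and 0.71 ± 0.46 (SD, n = 3 each). On this scale Ldha rose 2.03-fold by this probe (log2 1.02, SE 0.29, 95% interval 0.36 to 1.69, limma adjusted p = 0.0444).

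The call was lost without any one of normal replicates 1, 2 and 3 (limma adjusted p = 0.111, 0.105 and 0.169) or of ARDS replicates 1 and 3 (0.107 and 0.0633), with differences of 0.81 to 1.12. It was kept without ARDS replicate 2, at 1.27 (limma adjusted p = 0.0228), where 28 of the 51 linear probes passed. The share over all probes is not given for that fit. Within the first scan the difference was 0.81 (limma adjusted p = 0.0633) and against the mean of the other linear probes 0.41 (0.239). Without scaling it turned to -0.22.

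Sdha was high in 1 ARDS lung. Its signal was 78.8, 50.9 and 58.7 on normal arrays 1 to 3 and 59.9, 60.2 and 137 on ARDS arrays 1 to 3. The first 2 ARDS arrays lay within the normal range, and the third was 1.74 times the next highest array. All 10 of its spots there took part: the dimmest read 105, and the brightest spot used on any other array 84.7. Sdha was brightest on ARDS replicate 3 although that array was the dimmest by the 75th percentile. Before scaling, 2 of the 51 linear probes (3.92%) were brightest there, Sdha and Ptk2b, and 2.31% of the circRNA probes. That lung is also the one in the second scan, with a local background of 24.0 around the Sdha spots against 16.0 to 19.0 elsewhere. The part of the scan in this value was not tested, since that scan holds only this array.

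Scaled, Sdha stood at -1.29, -1.55 and -1.51 on normal arrays and at -0.08, -0.75 and 1.28 on ARDS arrays. No ARDS array overlapped the normal ones, but the ARDS arrays spread over more than the gap between groups. The means were -1.45 ± 0.14 and 0.15 ± 1.04 (SD, n = 3 each), and the difference was 1.60 (SE 0.48, 95% interval 0.49 to 2.71), just short of the threshold (limma adjusted p = 0.0519). With normexp background correction, its offset of 50 and quantile normalization it was 0.93 (limma adjusted p = 0.118). Without ARDS replicate 3 the difference was smaller, 1.03 (SE 0.28, 95% interval 0.37 to 1.70), and passed (limma adjusted p = 0.0389), as did 27.7% of all probes in that fit. It passed too without ARDS replicate 2, at 2.05 (limma adjusted p = 0.0256), where 28 of the 51 linear probes passed. For that fit the share over all probes is not given. Sdha passed in these 2 of the 6 fits that each left out 1 array. Unscaled, it was 0.36 on all arrays (SE 0.40, 95% interval -0.55 to 1.27, limma adjusted p = 0.488) and -0.04 within the first scan (limma adjusted p = 0.926).

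Among the 10 Sdha spots, the one in column 81 of 82 was among the 2 dimmest on 5 of the 6 arrays and ranked 7 from the dimmest on normal replicate 2. The one in row 1 was among the 2 dimmest on 3 of the 6 and ranked 9 on normal replicate 2. Taking the median over spots in place of the mean left the scaled difference at 1.63 (limma adjusted p = 0.0534). These spots were picked after their values had been seen, and an effect of position was not tested.

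**Figure D2:**
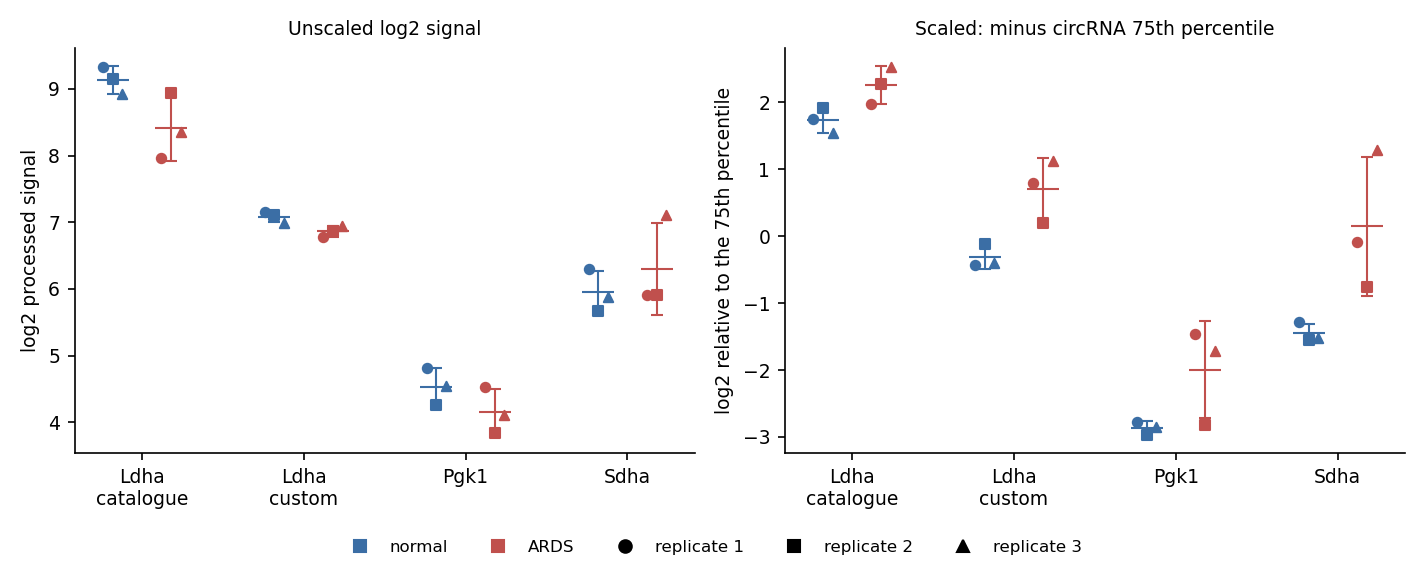
Mean log2 signal of each probe by array, unscaled (left) and minus the circRNA 75th percentile of the array (right); horizontal bars with whiskers are group means ± SD (n = 3), and marker shapes are replicates. Both Ldha probes and Pgk1 shift from lower to higher in ARDS lung on scaling, and Sdha on ARDS replicate 3 reaches 7.10 before and 1.28 after it; levels of different probes are not comparable.

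The direction of 3 of the 4 probes turned with the reference. Pgk1 and both Ldha probes were below 0 without scaling and above 0 with the 75th percentile, the array median and quantile normalization. Against the mean of the other 47 linear probes, which share the RNase R step, the Ldha catalogue probe stood at -0.08 (95% interval -0.69 to 0.53), the Ldha custom probe at 0.41 (-0.20 to 1.03), Pgk1 at 0.26 (-0.47 to 0.98) and Sdha at 0.99 (0.003 to 1.99). On that scale 0 of 4 passed, against 38.6% of all probes, and Sdha came nearest (limma adjusted p = 0.0984). Only Sdha of the 4 had an unadjusted p under 0.05 there (limma), as did 17 of the 51 linear probes. That mean itself fell by 0.64 log2 units in ARDS lung before scaling, from 5.36 ± 0.24 to 4.72 ± 0.29 (SD, n = 3 each; exact permutation p = 0.1, the smallest possible).

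**Figure D3:**
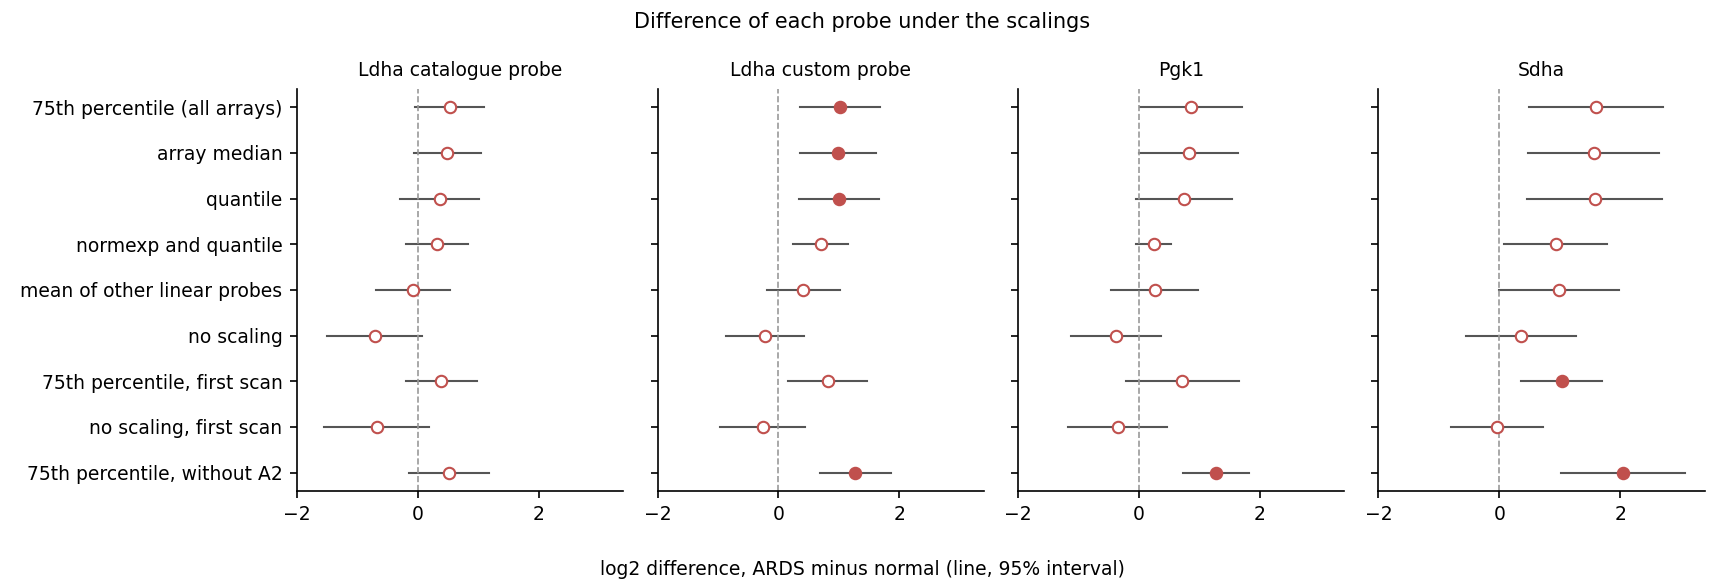
Log2 difference of ARDS minus normal lung for each probe (points) with its 95% interval (lines) under 6 scalings and 3 choices of arrays; filled points passed at an adjusted p under 0.05. The Ldha custom probe moves from 1.02 to -0.22 as the scaling is removed, and Sdha keeps a positive value except within the first scan without scaling, at -0.04.

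Log2 ratios between probes on 1 array do not change when one number per array is subtracted, as with the 75th percentile or the median, though they do with quantile normalization or another background correction. Sdha stood higher against the catalogue probe of Ldha in all ARDS lungs, without passing. The log2 ratio of Sdha to it was -3.03, -3.48 and -3.05 on normal arrays 1 to 3 and -2.06, -3.03 and -1.25 on ARDS arrays 1 to 3. The groups did not overlap, but ARDS replicate 2 and normal replicate 1 were equal to 2 decimals, and the means were -3.19 ± 0.25 and -2.11 ± 0.89 (SD, n = 3 each). The difference of 1.08 had an exact two-sided permutation p of 0.1, the smallest possible, and an adjusted p of 0.45 over the 6 pairs of probes. Within the first scan it was 0.65. The groups overlapped with the median over spots (1.11, exact permutation p = 0.2), with outlier spots kept (1.07, exact permutation p = 0.3) and with normexp and quantile normalization (0.62, exact permutation p = 0.3).

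Over all 6 arrays and without quantile normalization, the other pairs overlapped between groups. The ratio of Sdha to the custom probe of Ldha differed by 0.58 (exact permutation p = 0.3) and that of Sdha to Pgk1 by 0.74 (exact permutation p = 0.3). Without ARDS replicate 3 these differences were 0.22 and 0.31. The ratio of Sdha to Pgk1 was nearly constant in normal lung, at 1.49, 1.41 and 1.33, and went to 1.38, 2.07 and 3.00 in ARDS lung. Pgk1 differed from the Ldha custom probe by -0.16 (exact permutation p = 0.8) and from the catalogue probe by 0.34 (exact permutation p = 0.6), which turned to -0.070 without ARDS replicate 1. The adjusted p of these pairs was 0.45 or higher over the 6 pairs. With quantile normalization the Ldha custom to catalogue ratio (0.65) and the Sdha to Pgk1 ratio (0.83) no longer overlapped (exact permutation p = 0.1, adjusted p = 0.2). With normexp and quantile normalization the same held for Pgk1 to the Ldha custom probe (-0.46) and Sdha to Pgk1 (0.69, each with exact permutation p = 0.1, adjusted p = 0.3). No pair was thus shown to have changed unequally, in a design that cannot go below 0.1 per pair.

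The 2 probes for Ldha target the same transcript and did not move alike on every array. The log2 ratio of the custom to the catalogue probe was -2.18, -2.03 and -1.94 on normal arrays and -1.18, -2.07 and -1.41 on ARDS arrays. On ARDS replicates 1 and 3 the ratio was above all normal arrays, and on ARDS replicate 2 the ratio was that of normal lung. The difference was 0.50 (exact permutation p = 0.3, adjusted p = 0.45). Where in the transcript each probe lies is not given in the sources used here.

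**Figure D4:**
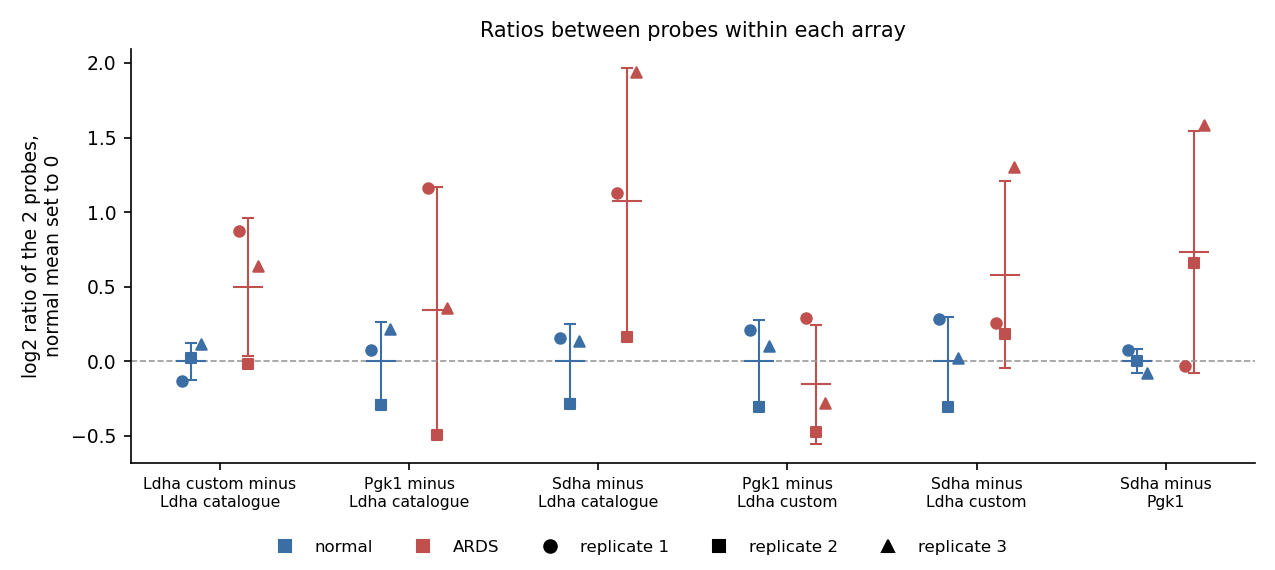
Log2 ratio of one probe to another on each array, with the normal mean of each pair set to 0; bars with whiskers are group means ± SD (n = 3), and marker shapes are replicates. Only the pair of Sdha and the Ldha catalogue probe has groups that do not overlap, with a difference of 1.08.

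Among the linear transcripts the 4 probes stood in the upper and middle part. By scaled difference Sdha ranked 5 of 51, the Ldha custom probe 18, Pgk1 22 and the Ldha catalogue probe 28. The ranks are the same without scaling, since scaling adds one number to all. Of the 18 linear probes that passed, 16 were higher and 2 lower in ARDS lung (31.4% and 3.92% of 51), and Ptk2b, a tyrosine kinase, led them at 3.02. Single arrays moved that count: it was 2 when normal replicate 1 was left out, 4 for ARDS replicate 1 and 28 for ARDS replicate 2. It was 0 in limma when normal replicate 2 was left out and 0 again for normal replicate 3, and 21 linear probes had an unadjusted p under 0.05 in each of those fits.

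**Figure D5:**
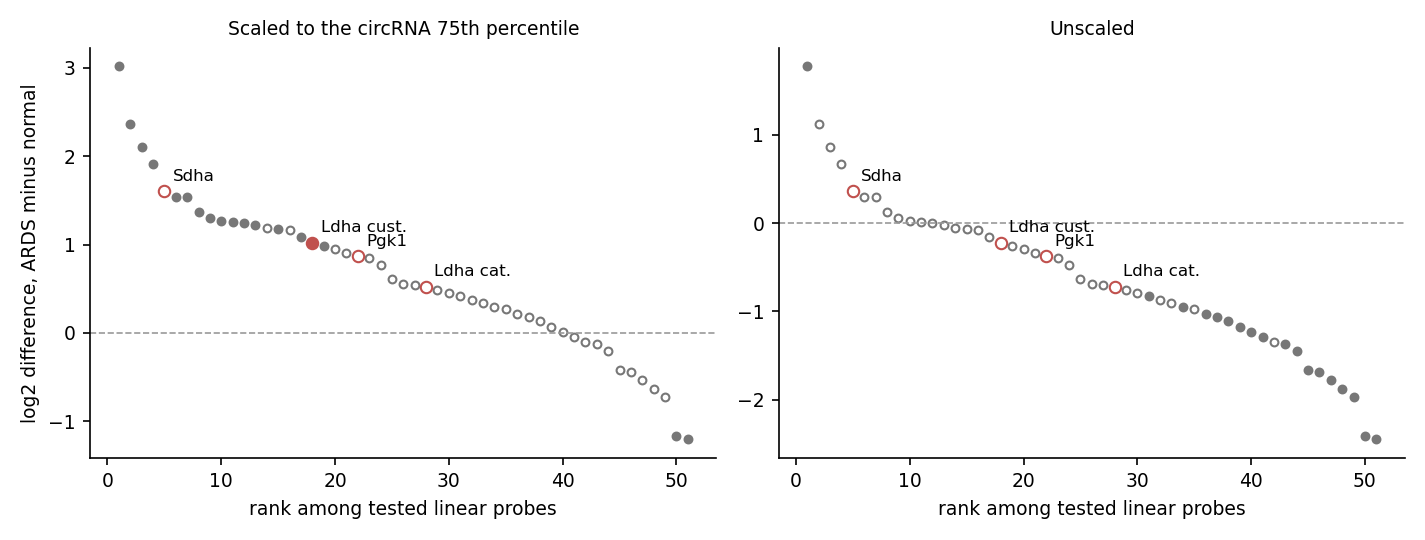
Log2 difference of ARDS minus normal lung for the 51 tested linear probes in order of size, scaled (left) and unscaled (right); red marks the 4 probes, and filled points passed at an adjusted p under 0.05. Sdha is the fifth from the top at 1.60 scaled and 0.36 unscaled, and the other 3 change from above to below 0.

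The rest of both pathways was hardly sampled by the array. Of 31 genes listed for glycolysis and lactate, 2 were measured, Pgk1 and Ldha, and of 32 listed for the citrate cycle and respiration 1 was, Sdha. A neighbouring transcript outside these lists, chosen after its value was seen, was Pdk3, a kinase that restrains pyruvate dehydrogenase and so the entry of pyruvate into the citrate cycle. Its scaled difference was 0.14 and did not pass (limma adjusted p = 0.675), whereas without scaling it fell by 1.11 and passed (limma adjusted p = 0.0274). In that unscaled fit 58.7% of all probes and 17 of the 51 linear probes passed as lower. The median unscaled difference of circRNA probes was -1.19.

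Likeness to other linear transcripts was described over the 6 arrays by Pearson's r of scaled values, among 26 other tested probes with a symbol. All such values share the subtraction of one number per array. The Ldha custom probe was most like Gusb, a lysosomal glucuronidase (r = 0.979), Map2, a microtubule-associated protein (0.976), and Hprt1 of purine salvage (0.976). Pgk1 was most like Gusb (0.947), Pop7 of RNase P (0.936) and Ppp2r2b, a phosphatase subunit (0.928). Sdha was most like Ptk2b (0.972), the nuclear export receptor Cse1l (0.971) and Gusb (0.909). The Ldha catalogue probe was most like the chaperone Hsp90ab1 (0.909), Ptk2b (0.838) and B2m of MHC class I (0.811).

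Among themselves the probes were less alike once the groups were set aside. The 2 Ldha probes had r = 0.815 over the scaled values and 0.40 over values minus the group mean, and Pgk1 had -0.22 with the catalogue probe on the latter. Other pairs stayed more alike there. The custom probe had 0.83 with Sdha and 0.75 with Pgk1, and Sdha had 0.63 with Pgk1 and 0.51 with the catalogue probe. On the unscaled values Sdha had -0.28 with the catalogue probe, -0.02 with the custom probe and -0.10 with Pgk1. The 2 Ldha probes had 0.84 with each other on that scale, and Pgk1 had 0.14 with the catalogue and 0.40 with the custom probe. Of the neighbours by scaled value, Ptk2b remained the first for Sdha on unscaled values (0.855) and after removal of the group means (0.941). Hsp90ab1 for the catalogue probe (0.954) and Gusb for Pgk1 (0.941) also remained first on unscaled values. Sdha and Ptk2b were the linear probes brightest on ARDS replicate 3 before scaling, the array of the second scan. The next neighbour of Sdha on unscaled values had 0.32. The part of that array in these r values was not tested.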

How the data were processed

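RNA of 3 normal and 3 ARDS rat lungs was measured on 1-colour arrays, 1 per rat. Per the file headers, version 11.0.1.1 of Agilent's Feature Extraction software turned the scans into one intensity per spot, with local background and spatial trend removed but no scaling between arrays. The authors also deposited a table of log2 values; the submitters' processing notes name limma, with no version or role. As used here that table lists 0 of the 62 linear probes, so it served for no value.

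Control and outlier spots were left out and log2 signals averaged over spots. A probe counted as detected where over 0.5 of its spots were well above background, and probes detected on at least 3 of 6 arrays with a value on all 6 were tested. Values were scaled by the 75th percentile over circRNA probes. Groups were compared with limma 3.58.1 in R 4.3.3 (lmFit, eBayes, two-sided, Benjamini-Hochberg, threshold 0.05), and single values by exact two-sided permutation tests. The number of arrays limits the precision. The procedure was tested on simulated data, but no setting or outcome of that test is given here, so it lends no support to the results. The normexp alternative used median signals, an offset of 50 and quantile normalization. It thus changes background correction, offset, signal column and scaling together. Accessions were matched to RefSeq genes of GRCr8.

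The genes, lists and tests were chosen with earlier results of these data known. Named genes were the 4 probes, the listed pathway genes that were measured, and the 3 most similar linear transcripts of each probe; Pdk3 was added after its value was seen, and Ptk2b is also named as the leading linear probe.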

Additional observations from a re-analysis of the deposited data

How the results depend on the processing

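Values are log2 differences of ARDS minus normal lung with limma adjusted p. The numbers in the titles were not taken as pairs. Over circRNA probes, deviations from the group mean correlated at 0.589, -0.229 and 0.138 between same-numbered arrays. Deviations within a group are not independent of each other, so these values cannot exclude a pairing. With that number as a replicate block the Ldha custom probe missed the threshold (1.02, adjusted p = 0.0559), Sdha passed (1.60, 0.0403) and 20 linear probes were called. Without scaling the Ldha catalogue and custom probes and Pgk1 stood at -0.72, -0.22 and -0.38, and within the first scan without scaling, a setting added after seeing the data, at -0.69, -0.26 and -0.35, with Sdha at -0.041. Against the mean of the other linear probes the 2 Ldha probes stood at -0.082 and 0.41, and the calls among linear probes were 6 higher and 7 lower, against 16 and 2 with the 75th percentile and 1 and 17 without scaling. The Ldha custom probe also missed the threshold with normexp on median signals plus quantile normalization (0.70, 0.0555), with no filter (1.02, 0.0504) and with the scan as a block, which here is the fit within the first scan (0.81, 0.0633). Sdha passed with the filter of 6 arrays (1.60, 0.0435), where 20 linear probes were called, and with array weights (1.48, 0.0245), where 23 were. For these 2 fits and the replicate block the share of all probes called is not given. It also passed with the scan as a block or within the first scan (1.03, 0.0389), where 16 linear probes were called. In a fit of linear probes alone Sdha passed (1.60, 7.04e-05), and so did Pgk1 (0.87, 0.0284). That fit gives all 4 probes one standard error (0.35), so its p-values do not use a probe's own spread and are no support. With normexp plus quantile normalization 7 linear probes were called, and which of the changed steps moved that count was not tested.

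Leaving out each array in turn gave 0.39 to 0.67 for the Ldha catalogue probe, 0.81 to 1.27 for the custom probe, 0.60 to 1.28 for Pgk1 and 1.03 to 2.05 for Sdha, with 0 to 28 linear probes called. The custom probe passed in 1 of these 6 fits, Pgk1 in 1 and Sdha in 2. All of them passed without ARDS replicate 2, where 28 linear probes were called. Sdha also passed without ARDS replicate 3, where 16 linear probes and 27.7% of all probes were called. The share of all probes is not given for the other fits. Differences between probes within an array moved by less than 1 SD under all settings tried for them, but Pgk1 minus the Ldha catalogue probe turned from 0.34 to -0.069 with normexp plus quantile normalization and to -0.070 without ARDS replicate 1. The deposited table gave no alternative value. Where no cause is named above, the cause was not tested. Pgk1, with mean signals of 14.3 to 28.0, was closest to the background.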
